A study of Mus musculus with 14 samples.

Results

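The aryl hydrocarbon receptor is a ligand-activated transcription factor, and the genes described here are its own gene, those of its partner and repressor, and a set of its best-known targets. The 8 mouse genes Cyp1a1, Cyp1a2, Cyp1b1, Aldh3a1, Tiparp, Ahr, Arnt and Ahrr were taken by name from the 22911 gene symbols on the array, through the RefSeq accession given for each probe, and 10 probes matched them. Ahrr and Arnt had 2 probes each and the others 1. Of the 8 genes, 7 entered the test, because a probe of theirs exceeded background clearly on 3 arrays or more. Cyp1a2 did so on no array.

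The samples were whole lungs of male C57BL/6N mice, collected 1 month after carbon fibre had been given into the trachea at 200 µg per mouse. The fibre groups were VCF, fibre that had not been recycled (3 mice), CCF, fibre taken after the carbonization step of recycling (3 mice), and RCF, fibre taken after firing (3 mice). Control mice received the PBS vehicle (5 mice). The design text calls the samples independent biological samples. RNA of each lung was hybridised to 1 one-colour Agilent array. The age of the mice and the size of the fibres are not given in the sources used here. Each level below is the log2 processed signal minus the 75th percentile of that array, so that 0 is the 75th percentile and 1 unit is a doubling.

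The 14 arrays lay on 3 slides. Slide 1 held control, VCF, CCF and RCF arrays, slide 2 control, VCF and CCF arrays, and slide 3 control and RCF arrays. Per the file headers, slide 3 was scanned on another day than slides 1 and 2, so no VCF or CCF array was scanned that day. The 75th percentile of the signal was 277 in VCF 1, 323 in CCF 2 and 375 in RCF 1, and 891 to 2953 on the other arrays. The share of probes well above background ran from 49.4% to 71.3%, and from 65.6% to 71.3% on the arrays of slide 3. All 8 markers of lung epithelium on the list used were measured, and none passed the test in any of the comparisons. Control 2 stood apart for squamous epithelium markers and RCF 1 and RCF 2 for hepatocyte markers, and these values are given beside the results they touch.

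Without ligand, the receptor protein Ahr waits in the cytoplasm in a complex with the heat shock protein Hsp90. Aromatic ligands such as polycyclic aromatic hydrocarbons and dioxins bind it, it enters the nucleus, pairs with Arnt, and the pair binds DNA at sites with the core GCGTG. Cyp1a1, Cyp1b1, Aldh3a1 and Tiparp are switched on in this way, and Tiparp and Ahrr feed back to damp the receptor. In mouse lung, endothelial cells and club cells are known to raise Cyp1a1 when the receptor is active.

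The promoters of 4 of these genes are shown because the genes are tested below as targets or feedback regulators of the receptor. Letters that match the core of its binding site occur in them, and binding there was not tested. Each is the 250 bases before the RefSeq start of the gene in GRCm38.p6, written 5′ to 3′ on the strand of the gene, and the capitals mark the core GCGTG or its reverse complement CACGC.
Cyp1a1 promoter, chr9:57697363-57697612 (plus strand): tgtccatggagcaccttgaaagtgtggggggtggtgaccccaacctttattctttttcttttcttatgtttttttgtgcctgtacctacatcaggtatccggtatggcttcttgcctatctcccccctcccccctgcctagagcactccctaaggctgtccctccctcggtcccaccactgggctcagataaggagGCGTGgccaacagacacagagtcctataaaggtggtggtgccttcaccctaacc
Cyp1b1 promoter, chr17:79715062-79715311 (minus strand): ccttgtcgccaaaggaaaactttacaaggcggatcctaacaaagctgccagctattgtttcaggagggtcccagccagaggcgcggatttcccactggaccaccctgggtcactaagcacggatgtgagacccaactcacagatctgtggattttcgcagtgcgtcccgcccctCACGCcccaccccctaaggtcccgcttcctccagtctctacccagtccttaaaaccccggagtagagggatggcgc
Tiparp promoter, chr3:65528197-65528446 (plus strand): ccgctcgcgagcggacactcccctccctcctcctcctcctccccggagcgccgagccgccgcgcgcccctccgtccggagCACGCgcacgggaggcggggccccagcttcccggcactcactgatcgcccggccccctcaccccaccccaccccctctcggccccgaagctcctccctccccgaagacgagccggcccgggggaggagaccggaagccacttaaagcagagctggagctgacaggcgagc
Ahrr promoter, chr13:74292332-74292581 (minus strand): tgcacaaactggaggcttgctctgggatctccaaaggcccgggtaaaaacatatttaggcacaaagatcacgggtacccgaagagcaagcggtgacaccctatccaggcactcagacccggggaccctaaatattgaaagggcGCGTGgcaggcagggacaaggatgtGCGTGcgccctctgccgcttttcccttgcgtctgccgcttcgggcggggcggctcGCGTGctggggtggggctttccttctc

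A promoter entry was matched for 6 of the 8 genes, all but Ahr and Aldh3a1. The core was present on either strand in 5 of the 6, and in 28.2% of 32851 mouse promoters of the same length. Cyp1a1 had 1 core, which began 54 bases before the start. Ahrr had 3 cores, the nearest at 82 and 27 bases before the start. Cyp1b1 and Tiparp each had 1 core on the reverse strand, at 76 and 170 bases, and Arnt had 1 at 29 bases. The window of Cyp1a2 held none. The longer form TTGCGTG or its reverse complement CACGCAA was in 0 of the 6 and in 0.925% of all promoters. These are matches of letters, and the window leaves out the more distant enhancers of these genes.

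Levels of the target genes in the fibre groups were set against control lungs and against each other. In the VCF lungs Cyp1a1, the cytochrome P450 that oxidises polycyclic aromatic hydrocarbons and the classical readout of the receptor, lay below every other lung of the study, while in the CCF and RCF lungs it lay among or above the controls. In all 7 comparisons 0 of the 7 genes measured passed (limma, adjusted p under 0.05, adjusted over all genes tested). The background for that count differed widely between comparisons: 0.085% of genes passed in VCF against control, 5.99% in CCF against control, 0.154% in RCF against control, 2.58% in the mean of the 3 fibres against control, 0.222% in CCF against VCF, 0.00981% in RCF against VCF and 0.00327% in RCF against CCF.

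**Figure D1:**
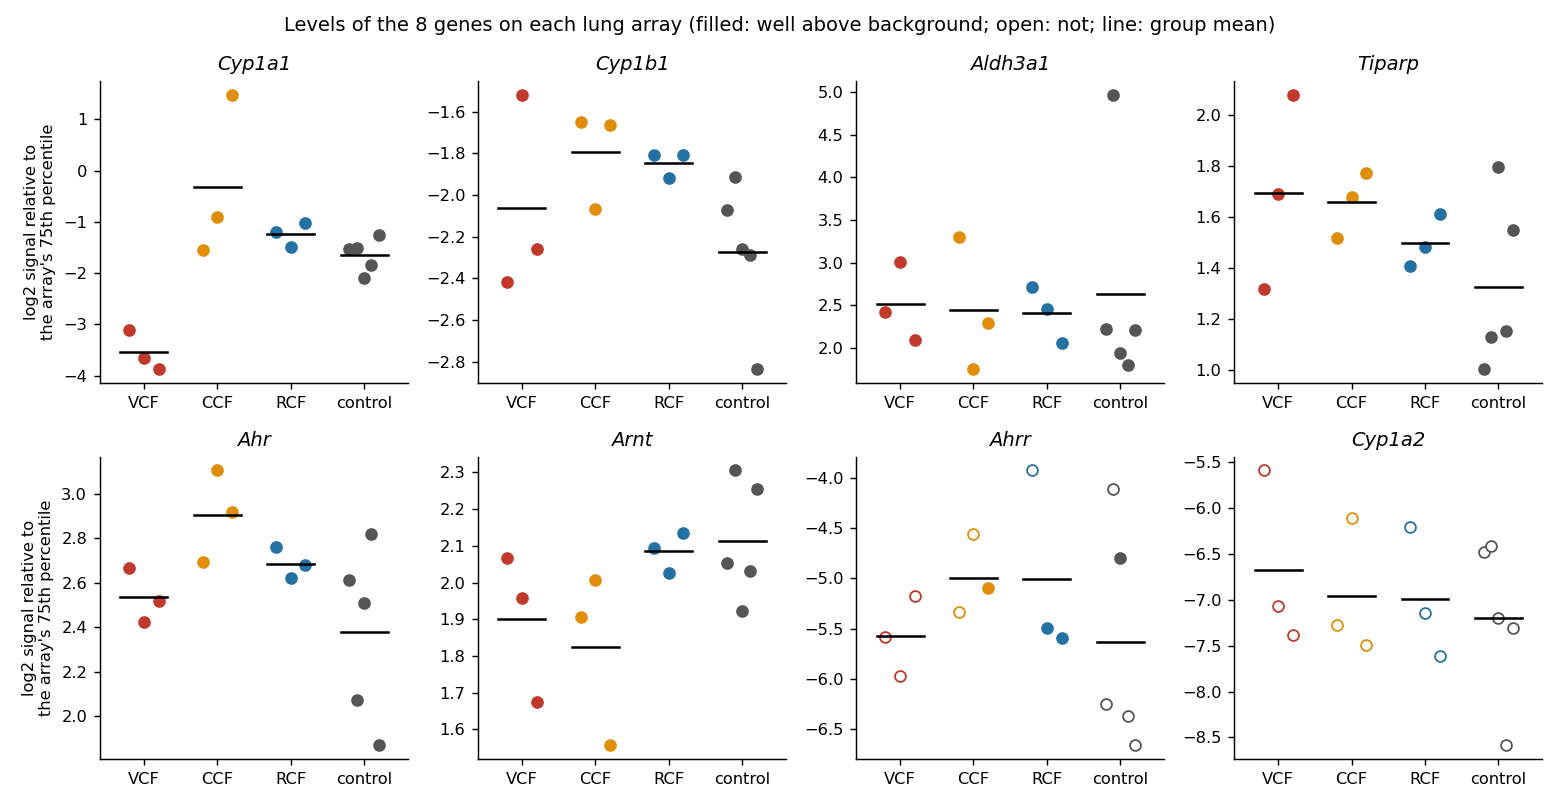
Level of each of the 8 genes on every array (y axis, log2 signal relative to the 75th percentile of the array) by group (x axis), with filled points well above background, open points not, and a line at the group mean. The 3 VCF arrays lay at −3.88 to −3.10 for Cyp1a1, below all other arrays, and every Cyp1a2 point is open.

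Cyp1a1 stood at −3.10, −3.65 and −3.88 in the 3 VCF lungs. It stood at −1.55, −0.90 and 1.48 in the CCF lungs. In the RCF lungs the levels were −1.20, −1.49 and −1.02, and in control lungs −1.53, −1.50, −2.10, −1.85 and −1.25. The VCF range did not overlap any other group, the RCF range overlapped the control range, and CCF 3 stood far above the other CCF lungs. The group means were −3.54 ± 0.40 in VCF, −0.32 ± 1.60 in CCF and −1.24 ± 0.24 in RCF (SD, n = 3 each), and −1.65 ± 0.33 in control (SD, n = 5). On the raw scale the processed signal of the probe was 32.3 to 93.4 in VCF, 173 to 3614 in CCF, 163 to 1050 in RCF and 258 to 607 in control, and the probe was well above background on every array.

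Cyp1a1 was 3.72-fold lower in VCF than in control lungs, a log2 difference of −1.90 ± 0.53 (SE; 95% confidence interval −3.05 to −0.75; limma, adjusted p = 0.223). It thus missed the threshold, although all 3 VCF arrays lay below all 5 control arrays. Of all genes, 3.91% were lower in VCF than in control without overlap of the arrays and 3.46% were higher, and of the 7 genes measured here 1 was lower, Cyp1a1, and none higher. All 3 VCF arrays lay below all 11 other arrays in 1.11% of genes (338 of 30443), Cyp1a1 among them. Within slide 1 the difference was −1.86 and within slide 2 it was −1.78. Without CCF 3, an array that is not in the contrast but enters the shared spread, the adjusted p was 0.0478, and over all alternatives tried it ran from 0.0478 to 0.588.

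Between the fibres the contrast was larger. Cyp1a1 was 9.34-fold higher in CCF than in VCF lungs, a log2 difference of 3.22 ± 0.59 (SE; 95% confidence interval 1.94 to 4.51; limma, adjusted p = 0.0568). It was 4.94-fold higher in RCF than in VCF lungs, at 2.31 ± 0.59 on the log2 scale (SE; 95% confidence interval 1.02 to 3.59; limma, adjusted p = 0.286). In both contrasts every array of the recycled fibre lay above every VCF array, as did 10.7% of genes in CCF against VCF and 10.5% in RCF against VCF. The CCF contrast lay close to the threshold, and its side depended on the setting. The adjusted p was 0.0374 with slide as a fixed block, 0.0221 with slide as a random block and 0.0391 on the authors' deposited values. It was 0.0282 on genes above background on every array, 0.0366 without CCF 1 and 0.0288 without CCF 3. Under all the rest of the 27 alternatives the contrast did not pass. The adjusted p was 0.341 when only those 2 groups were fitted and 0.187 without the lowest-signal fibre arrays. It was 0.159 with a replicate block, 0.141 with no filter on dim probes and 0.0926 with median scaling. Over all alternatives the log2 difference ran from 2.32 to 3.84 and the adjusted p from 0.0221 to 0.341. Within slides the difference was 2.15 on slide 1 and 5.36 on slide 2, which holds CCF 3. For RCF against VCF the adjusted p ran from 0.0427, without CCF 3, to 0.665, and the difference within slide 1 was 2.17. The 3 fibre contrasts share arrays, so they are not independent of each other.

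The level of Cyp1a1 in the CCF group rested on 1 lung. It was 2.51-fold higher in CCF than in control lungs (log2 difference 1.33 ± 0.53, SE; 95% confidence interval 0.18 to 2.47; limma, adjusted p = 0.152). Without CCF 3 the difference was 0.42, with an adjusted p of 0.440, and the CCF and control ranges overlapped in any case. Within slides it was 0.293 on slide 1 and 3.58 on slide 2, where the CCF array is CCF 3. RCF and control lungs differed by 0.41 ± 0.53 on the log2 scale (SE; 95% confidence interval −0.74 to 1.56; adjusted p = 0.830), with 0.315 within slide 1 and 0.294 within slide 3. RCF and CCF lungs differed by −0.92 ± 0.59 (SE; adjusted p = 0.671), and by −0.0153 without CCF 3. Since the fibres lay on both sides of control, the mean of the 3 fibres differed from control by −0.05 ± 0.40 (SE; adjusted p = 0.968).

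**Figure D2:**
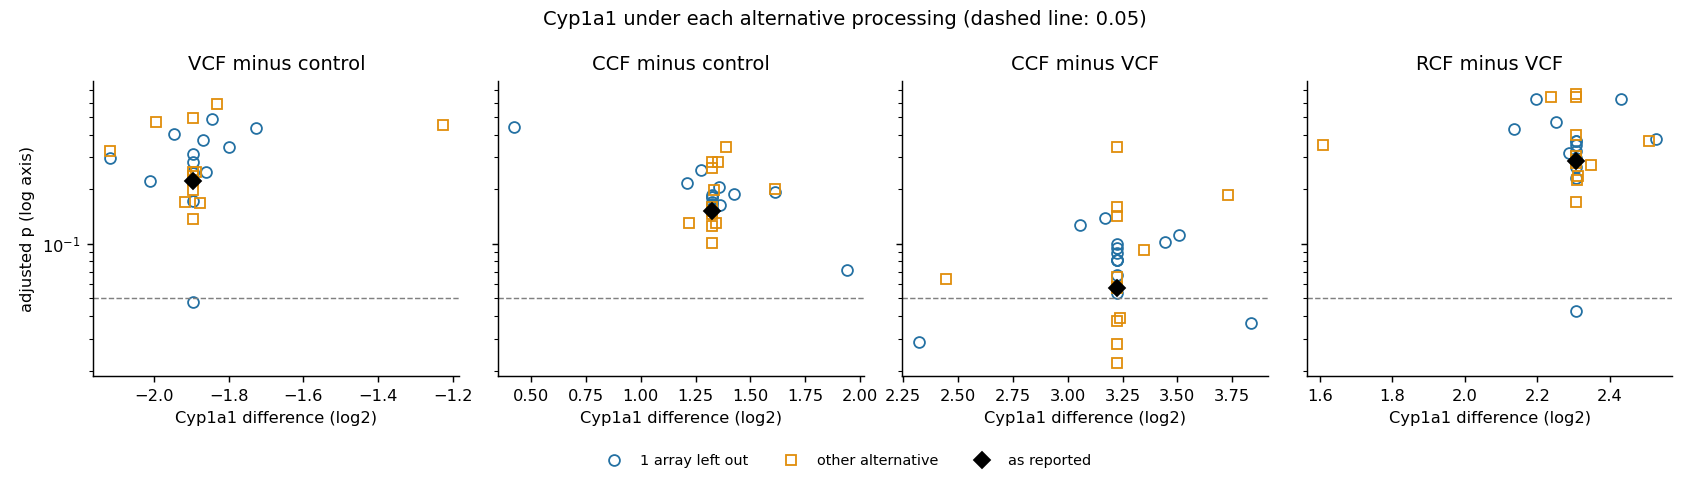
Log2 difference of Cyp1a1 (x axis) and its adjusted p (y axis, log axis) in 4 comparisons, as reported (diamond), with 1 array left out (circles) and under the other alternatives (squares), with a dashed line at 0.05. The difference between CCF and VCF crosses the line under 6 alternatives, those of VCF against control and RCF against VCF under 1 each, and that of CCF against control under none.

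In whole lung, fewer cells of a type and less RNA per cell cannot be told apart, so the marker lists of other cell types are given beside Cyp1a1. The mean of 5 neutrophil markers, relative to control, was 1.03 to 1.69 in VCF, −2.07 to −1.38 in CCF, −0.62 to 0.54 in RCF and −0.24 to 0.37 in control lungs. Their summed linear level was 189 to 225 in VCF, 24.3 to 43.3 in CCF, 66.7 to 158 in RCF and 96.4 to 150 in control lungs. The list thus ran opposite to Cyp1a1 across VCF and CCF, and 5 of 5 neutrophil markers were lower in CCF than in VCF by the test. Against control 4 of them were lower in CCF, and 1, Stfa1, was higher in VCF (2.69, adjusted p = 0.0401). The 9 endothelial markers averaged −0.27 to −0.18 in VCF, 0.02 to 0.06 in CCF, −0.13 to −0.05 in RCF and −0.14 to 0.13 in control lungs, and their summed level was 159 to 181 in VCF, 172 to 194 in CCF, 156 to 169 in RCF and 190 to 232 in control lungs. Of these 9, Plvap, a protein of the diaphragms of endothelial pores, was lower in VCF than in control (log2 difference −1.14, adjusted p = 0.0462) and higher in CCF than in VCF (1.17, adjusted p = 0.0337), and Tek, the receptor of the angiopoietins, was higher in CCF than in control (0.76, adjusted p = 0.0413). Erythroid markers (4 of 5 measured) averaged −2.14 to −1.01 in VCF, 0.28 to 0.62 in CCF, −0.33 to 0.30 in RCF and −0.998 to 0.86 in control lungs. Their summed level was 90.5 to 182 in VCF, 222 to 318 in CCF, 217 to 307 in RCF and 206 to 396 in control lungs. None of them passed against control. Before adjustment 4 of 4 were lower in VCF than in control (limma, p under 0.05; 9.96% of all genes in either direction). Likewise 4 of 4 were higher in CCF (13.8%) and in RCF (9.05%) than in VCF. Club cell markers (5 of 5 measured) averaged −0.18 to 1.21 in VCF, −0.62 to 0.30 in CCF, −0.70 to 0.13 in RCF and −0.54 to 0.75 in control lungs. T cell markers (3 of 4 measured) averaged −0.73 to −0.53 in VCF, −0.24 to −0.18 in CCF, −0.39 to −0.26 in RCF and −0.27 to 0.18 in control lungs, with a summed level of 4.86 to 5.91 in VCF, 6.76 to 6.999 in CCF, 6.64 to 7.35 in RCF and 7.83 to 9.21 in control lungs. As for Cyp1a1, all 3 VCF arrays thus lay below all 11 others. The same held for the erythroid markers, and for the mean of the endothelial markers but not their summed level. Before adjustment, however, only 1 of the 9 endothelial markers, Plvap, was lower in VCF than in control (limma, p under 0.05; 9.96% of all genes in either direction). The median log2 difference of these 9 was −0.09. B cell markers (4 of 4 measured) averaged −0.75 to −0.48 in VCF, −0.67 to −0.43 in CCF, −0.69 to −0.62 in RCF and −0.43 to 0.37 in control lungs, with a summed level of 14.4 to 20.6 in VCF, 16.7 to 18.5 in CCF, 17.2 to 20.5 in RCF and 23.6 to 37.9 in control lungs. None of the T or B cell markers passed in VCF against control. Markers of ciliated cells and of fibroblasts and smooth muscle did not pass in any comparison. The part of these cells in the Cyp1a1 values was not tested.

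**Figure D3:**
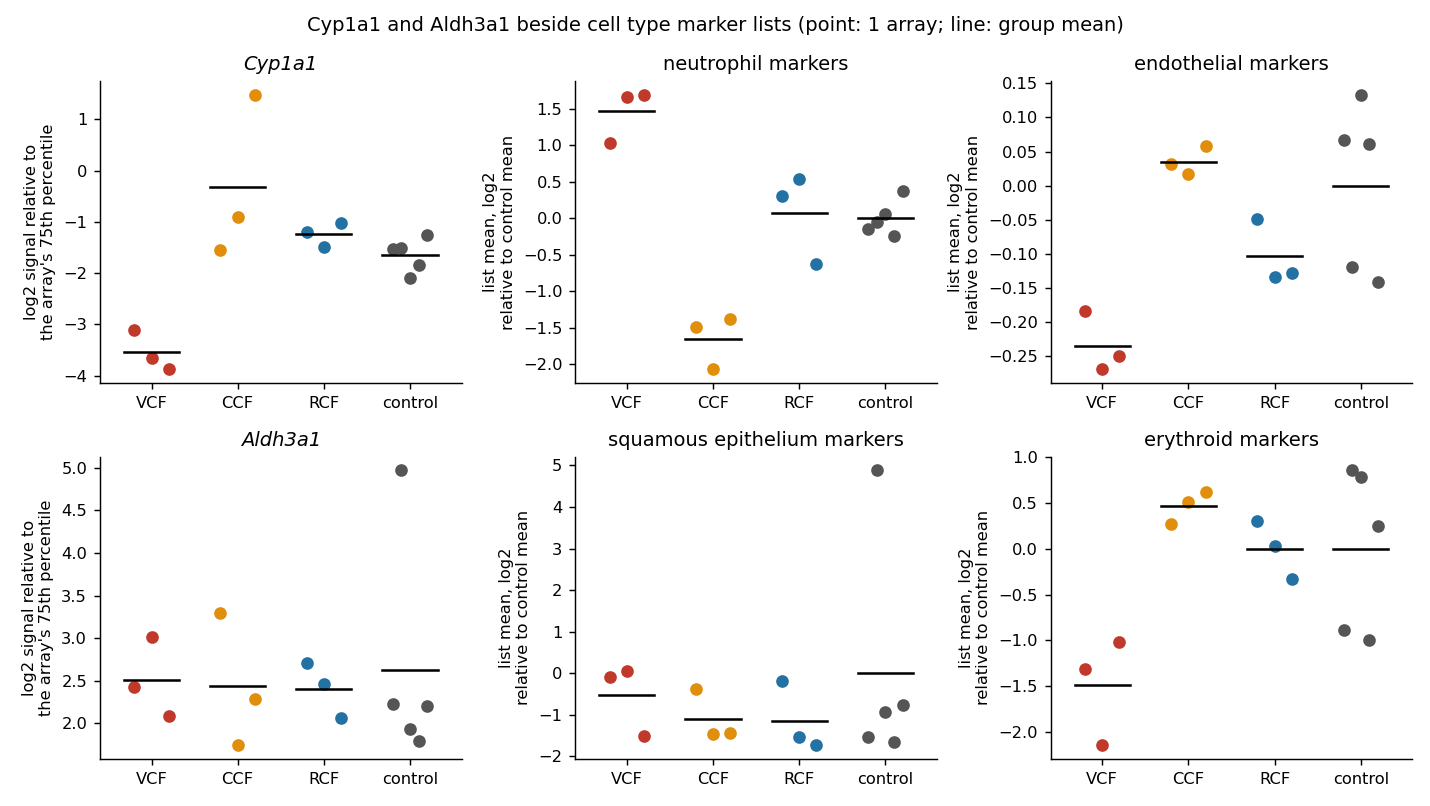
Cyp1a1 and Aldh3a1 levels on each array (left panels, log2 signal relative to the 75th percentile) beside the mean of cell type marker lists (log2 relative to the control mean), by group, with a line at the group mean. VCF arrays are lowest for Cyp1a1 and highest for neutrophil markers (1.03 to 1.69), and 1 control array is highest for both Aldh3a1 (4.97) and squamous epithelium markers (4.88).

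Cyp1b1, a second P450 of the family that acts on polycyclic aromatic hydrocarbons and on oestrogens, had levels in the VCF lungs that overlapped control. Its levels were −2.42, −1.52 and −2.26 in VCF, −1.65, −2.06 and −1.67 in CCF, −1.81, −1.92 and −1.81 in RCF and −2.07, −1.91, −2.26, −2.29 and −2.84 in control lungs. All fibre groups overlapped control. The log2 differences from control were 0.21 ± 0.24 for VCF (SE; adjusted p = 0.871), 0.48 ± 0.24 for CCF (adjusted p = 0.242) and 0.43 ± 0.24 for RCF (adjusted p = 0.486). The 95% confidence interval for VCF, −0.30 to 0.72, leaves room for levels from 0.81 to 1.65 times that of control.

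Cyp1a2, the P450 of this family that is abundant in liver, was not well above background on any of the 14 arrays. Its processed signal was 4.68 to 20.8 and its level −8.59 to −5.59, which are not measurements above background and give no fold. Hepatocyte markers (5 of 8 measured) averaged 3.88 in RCF 1 and 3.71 in RCF 2, −0.75 to 1.09 on the other arrays outside that group and −0.21 in RCF 3, and Cyp1a2 was below background on RCF 1 and RCF 2 as well.

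Aldh3a1 encodes an aldehyde dehydrogenase that is abundant in cornea and stratified epithelia and, in mouse liver cells, is induced through the receptor. Its levels were 2.42, 3.01 and 2.09 in VCF, 3.30, 1.75 and 2.29 in CCF, 2.71, 2.46 and 2.06 in RCF and 2.22, 4.97, 1.93, 1.79 and 2.21 in control lungs. Control 2 stood more than 2 log2 units above the other controls, and all groups overlapped. The differences from control were −0.12 ± 0.64 for VCF, −0.18 ± 0.64 for CCF and −0.22 ± 0.64 for RCF (SE; adjusted p 0.984, 0.907 and 0.946). Without control 2 they were 0.47, 0.40 and 0.37, so their sign turned on that lung, and they did not pass with or without it. Squamous epithelium markers (6 of 7 measured, among them the keratins Krt5, Krt14, Krt4 and Krt13) averaged 4.88 in control 2 and −1.73 to 0.05 on the other 13 arrays, with a summed level of 69.9 in control 2 and 2.26 to 8.0 elsewhere. Adipocyte markers averaged 2.77 in control 2. What these cells contribute to the Aldh3a1 value of that lung was not tested.

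Tiparp encodes a mono-ADP-ribosyltransferase that modifies the receptor and limits its action. Its levels were 1.32, 1.69 and 2.08 in VCF, 1.52, 1.68 and 1.78 in CCF, 1.41, 1.48 and 1.61 in RCF and 1.003, 1.13, 1.80, 1.15 and 1.55 in control lungs. The fibre means were higher than the control mean and every range overlapped control. The differences from control were 0.37 ± 0.21 for VCF, 0.33 ± 0.21 for CCF and 0.17 ± 0.21 for RCF (SE; adjusted p 0.613, 0.368 and 0.807). In the VCF lungs, where Cyp1a1 was lowest, Tiparp was on average at its highest, with a 95% confidence interval of the difference from control of −0.08 to 0.82. The VCF and CCF means were nearly equal, however (CCF minus VCF −0.04, limma, adjusted p = 0.973). VCF 1 stood lowest of all fibre lungs.

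The receptor and its partners were described next. Ahr stood at 2.67, 2.42 and 2.52 in VCF, 2.69, 3.11 and 2.92 in CCF, 2.76, 2.62 and 2.68 in RCF and 2.61, 2.07, 2.51, 2.82 and 1.87 in control lungs. Every CCF lung lay above every VCF lung, as in 10.7% of genes, whereas each fibre group overlapped control. The CCF mean was 0.53 ± 0.20 above control on the log2 scale (SE; 95% confidence interval 0.09 to 0.97; adjusted p = 0.137). The differences were 0.16 for VCF (adjusted p = 0.894) and 0.31 for RCF (adjusted p = 0.580), and CCF lay 0.37 above VCF (adjusted p = 0.514).

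Arnt, the DNA-binding partner that Ahr shares with the hypoxia factor Hif1a, was measured by 2 probes that moved in opposite directions. The probe with the higher mean stood at 2.07, 1.96 and 1.68 in VCF, 1.91, 2.01 and 1.56 in CCF, 2.09, 2.03 and 2.14 in RCF and 2.05, 2.31, 1.92, 2.03 and 2.25 in control lungs. Its differences from control were −0.21 ± 0.14 for VCF, −0.29 ± 0.14 for CCF and −0.03 ± 0.14 for RCF (SE; adjusted p 0.7098, 0.251 and 0.971). All 3 RCF arrays lay above all 3 CCF arrays, as in 8.82% of genes. The second probe averaged −0.37 in VCF, −0.23 in CCF, −0.47 in RCF and −0.54 in control lungs, so the sign of the Arnt differences from control depends on the probe and no direction is given.

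Ahrr, the repressor that competes with Ahr for Arnt, was near the limit of the array. Its brighter probe was well above background on 4 arrays, CCF 3, RCF 2, RCF 3 and control 3, and on no VCF array, and its other probe on none. The levels of the brighter probe were −5.97 to −5.17 in VCF, −5.34 to −4.56 in CCF, −5.59 to −3.93 in RCF and −6.66 to −4.11 in control lungs. A lower bound for CCF or RCF over VCF came out below 1, and no fold is given.

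**Figure D4:**
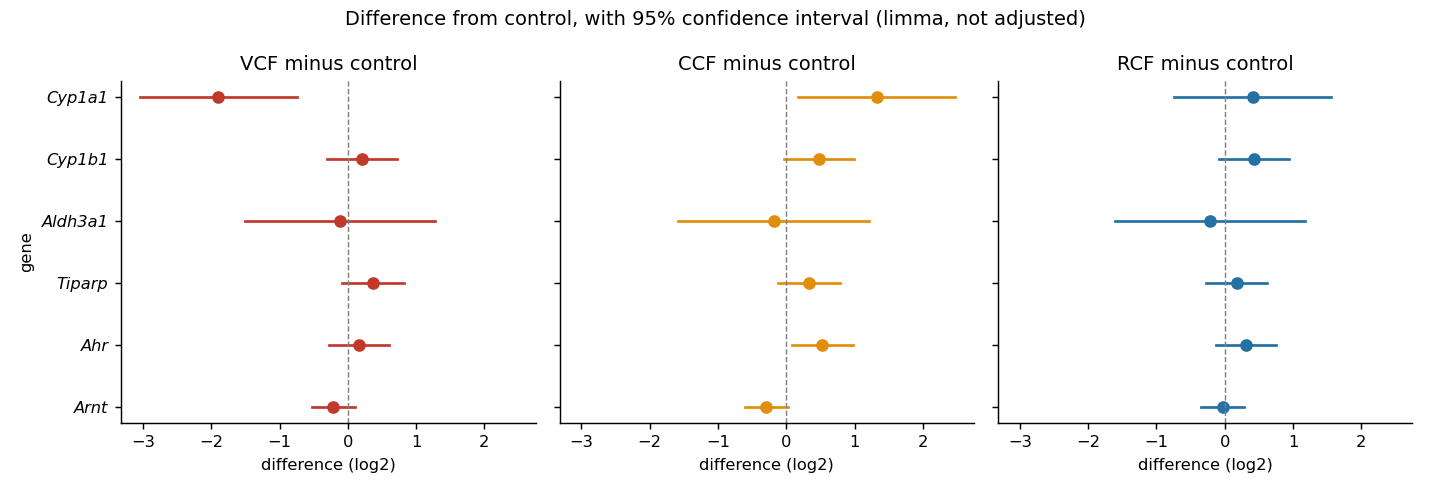
Log2 difference from control (x axis) with its 95% confidence interval for 6 genes (y axis) in VCF, CCF and RCF lungs, leaving out Ahrr and Cyp1a2, which were at or below background. Cyp1a1 lies at −1.90 in VCF and 1.33 in CCF, and the intervals of Cyp1b1, Aldh3a1, Tiparp and Arnt include 0 in every panel.

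Before adjustment, p was under 0.05 for 1 of the 7 genes in VCF against control (Cyp1a1; 9.96% of all genes), 2 in CCF against control (Cyp1a1 and Ahr; 23.7%), none in RCF against control (12.9%), 1 in CCF against VCF (Cyp1a1; 13.8%), 1 in RCF against VCF (Cyp1a1; 9.05%), none in RCF against CCF (9.26%) and none for the mean of the 3 fibres (19.5%). Without Ahrr, which has no fold here, the median log2 difference of the other 6 genes from control was 0.02 in VCF, 0.41 in CCF and 0.24 in RCF lungs, beside medians over all genes tested of −0.00270, −0.00311 and 0.0641. These 6 include Arnt, whose sign depends on the probe, and Aldh3a1, whose sign turned on control 2, so the medians rest partly on values without a settled direction. Directions differed in the VCF lungs: Cyp1a1 was the member below control without overlap, while Cyp1b1, Tiparp and Ahr had means above control that did not pass. Between these genes over the 14 arrays, Cyp1a1 correlated with Cyp1b1 at r = 0.214, and at −0.111 without the 2 arrays farthest from the median of Cyp1a1. With Tiparp it correlated at r = −0.107, and at 0.418 without the VCF arrays, so both signs depended on the arrays used. Of 15 pairs among 6 genes the strongest was Tiparp with Arnt (Pearson r = −0.638, two-sided permutation p = 0.0146, adjusted p = 0.219; Spearman rho = −0.657, permutation p = 0.0131, adjusted p = 0.196), and r was −0.585 without the 2 arrays farthest from the median of Tiparp. None of the 15 passed after adjustment, the arrays come from 4 groups, and the Arnt value is that of its brighter probe.

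Other genes were taken from 3 lists, 2 of the receptor's pathway and 1 of other enzymes of xenobiotic and aldehyde metabolism, of which 42 of 47 genes were measured. In CCF against control 4 of the 42 rose and none fell (5.99% of all genes passed in either direction), while in VCF against control, RCF against control and each contrast between fibres none passed; for the mean of the 3 fibres 4 rose (2.58% of all genes passed). The median log2 differences from control in VCF, CCF and RCF lungs were 0.07, 0.06 and 0.07 for the first list, 0.16, 0.15 and 0.30 for the second and 0.17, 0.19 and 0.17 for the third, beside the medians over all genes given above. The first list held the chaperones, coregulators and other partners of the receptor or Arnt (14 of 16 measured). Of these Ncoa2, a coactivator of nuclear receptors that also works with Ahr, rose in CCF lungs. It stood at −0.05, 0.67 and 0.66 in VCF, 0.81, 1.07 and 0.62 in CCF, 0.70, 0.53 and 0.73 in RCF and −0.40, 0.26, 0.20, −0.05 and 0.00 in control lungs. The CCF difference was 0.83 ± 0.20 (SE; adjusted p = 0.0348), and the call was lost under 15 of 27 alternatives, among them the omission of any CCF lung, with adjusted p up to 0.196. Hif1a, the oxygen-regulated partner of Arnt, differed from control by 0.26 in VCF, 0.65 in CCF (adjusted p = 0.0588) and 0.46 in RCF lungs. Hsp90aa1, the inducible form of the chaperone that holds unliganded Ahr, differed by −0.84 ± 0.28 in CCF (adjusted p = 0.0915) and by 0.20 in VCF lungs.

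The second list held 18 further genes known to respond to the receptor in mouse cells, 15 of them measured. In CCF against control 2 rose and none fell, Polk and Xdh. Polk, DNA polymerase kappa, which copies past bulky adducts of polycyclic aromatic hydrocarbons, stood at 0.28, 0.25 and 0.08 in VCF, 0.58, 0.59 and 0.48 in CCF, 0.27, 0.03 and 0.21 in RCF and −0.15, −0.13, −0.14, −0.33 and −0.27 in control lungs. All 9 fibre lungs lay above all 5 controls, as in 1.08% of genes. The difference from control was 0.76 ± 0.11 in CCF (SE; adjusted p = 0.00698), 0.41 in VCF (adjusted p = 0.195) and 0.37 in RCF lungs (adjusted p = 0.174), and 0.51 ± 0.08 for the mean of the fibres (adjusted p = 0.0158). Its CCF call held under 24 of 27 alternatives and was lost under 3. These were median scaling (0.78, adjusted p = 0.0876), the replicate block (0.69, adjusted p = 0.101) and the mean over its probes past the filter (0.30, adjusted p = 0.717). Of its 3 probes, a second was well above background on 7 of the 14 arrays and entered that mean. The remaining probe was so on 1 array and did not enter it.

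Xdh, xanthine oxidoreductase, which makes uric acid and superoxide, stood at 3.01, 3.56 and 2.87 in VCF, 3.38, 3.19 and 2.69 in CCF, 2.87, 2.46 and 2.70 in RCF and 2.43, 2.49, 2.42, 1.96 and 2.01 in control lungs. All VCF and CCF lungs lay above all controls; 3.46% of genes did so in VCF and 9.89% in CCF. It differed from control by 0.89 ± 0.21 in VCF (SE; adjusted p = 0.161), 0.83 ± 0.21 in CCF (adjusted p = 0.0444) and 0.41 in RCF lungs (adjusted p = 0.457), and by 0.71 ± 0.16 for the mean of the fibres (adjusted p = 0.0466). The CCF call was lost under 15 of 27 alternatives, with adjusted p up to 0.217, the call for the mean of the fibres under 16, and a dimmer second probe of Xdh averaged −0.15 in VCF, −0.89 in CCF, −1.36 in RCF and −0.99 in control lungs.

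Of the other genes of this list, Ugt1a6a, a glucuronosyltransferase, differed by 0.86 ± 0.41 in VCF (adjusted p = 0.524), Slc7a5, an amino acid transporter, by −1.24 ± 0.66 in CCF (adjusted p = 0.280), and Nfe2l2, the oxidative stress factor Nrf2, by 0.41 in VCF, 0.48 in CCF and 0.51 in RCF lungs (adjusted p 0.496, 0.146 and 0.267). Nqo1, a quinone reductase under control of both Ahr and Nrf2, differed by −0.35 in VCF, 0.43 in CCF and −0.17 in RCF lungs (adjusted p 0.787, 0.402 and 0.881). The Slc7a5 probe was not well above background on VCF 1, CCF 2 and RCF 1, and the Ugt1a6a probe not on control 2, CCF 2 and RCF 1. Serpinb2, a protease inhibitor, was well above background on 1 of 3 VCF, 0 of 3 CCF, 3 of 3 RCF and 2 of 5 control arrays, and the cytokine Il22 on 0 of 3 VCF, 2 of 3 CCF, 3 of 3 RCF and 3 of 5 control arrays, so no fold is given for either.

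The third list held 13 other genes of P450 enzymes, their reductase and aldehyde dehydrogenases, all measured. Cyp2b10, a P450 of the xenobiotic receptor CAR that is also expressed in lung, rose in CCF lungs. It stood at 5.90, 6.21 and 6.08 in VCF, 6.06, 6.28 and 6.02 in CCF, 6.16, 5.94 and 5.95 in RCF and 5.59, 5.38, 5.74, 5.51 and 5.36 in control lungs. All 9 fibre lungs thus lay above all controls, as in 1.08% of genes. The differences were 0.55 in VCF (adjusted p = 0.157), 0.60 ± 0.13 in CCF (SE; adjusted p = 0.0253) and 0.50 in RCF lungs (adjusted p = 0.144), and 0.55 ± 0.10 for the mean of the fibres (adjusted p = 0.0240). The CCF call was lost under 10 of 27 alternatives, among them the omission of any CCF lung. Aldh3a2 differed by 0.43 in CCF and 0.48 in RCF lungs without passing. Cyp2e1, a P450 that oxidises ethanol, differed by 1.06 ± 0.86 in VCF lungs (SE; adjusted p = 0.783), but it stood at 1.03, 4.27 and 1.33 there and averaged 1.16 in control lungs, and without VCF 2 the difference was 0.03. Cyp2a5 differed by 1.02 ± 0.65 in VCF lungs (SE; adjusted p = 0.684) and by 0.71 without VCF 2. Adipocyte markers averaged 1.96 in VCF 2, 0.52 and −0.69 in the other VCF lungs and −1.41 to 2.77 in control lungs, and their part in these values was not tested. In the same CCF lungs 4 of 5 neutrophil markers were lower than in control by the test, as was the B cell gene Cd79b (−0.98, adjusted p = 0.0174). Tek, 1 of 9 endothelial markers, and Siglecf, 1 of 6 alveolar macrophage markers (0.59, adjusted p = 0.0368), were higher. The other members of both lists did not pass there, and their CCF means lay on either side of control. The alveolar macrophage list averaged −0.29 to 0.52 in VCF, −0.04 to 0.41 in CCF, 0.06 to 0.34 in RCF and −0.39 to 0.75 in control lungs. For the mean of the 3 fibres Cd79b (−0.88, adjusted p = 0.0169) and the T cell gene Cd2 (−0.41, adjusted p = 0.0369) were lower and Siglecf was higher (0.48, adjusted p = 0.0465). Their part in the calls of the 3 lists was not tested.

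**Figure D5:**
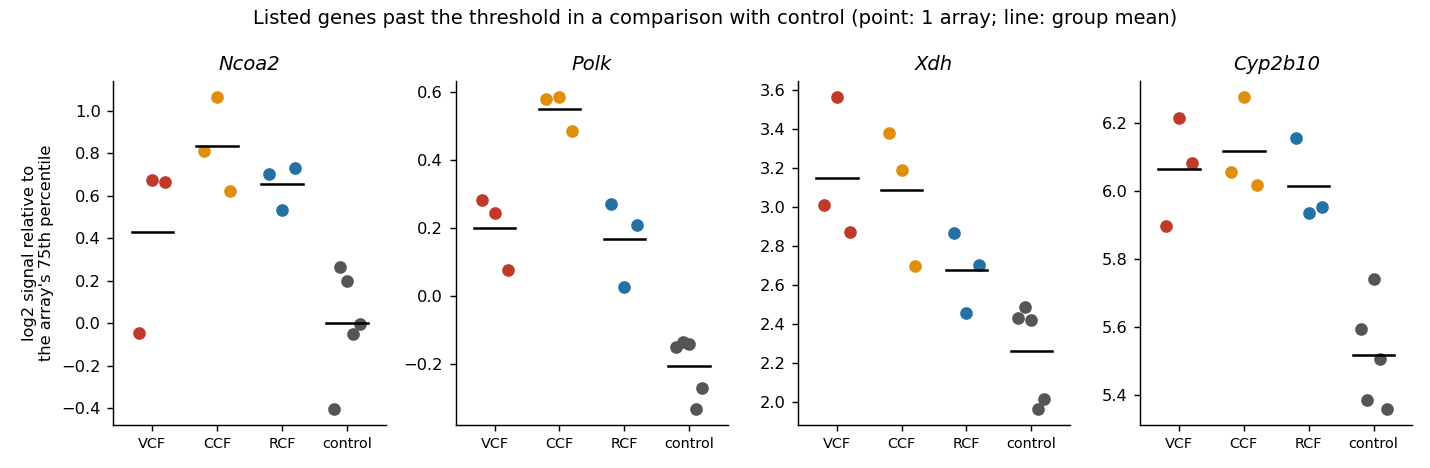
Level on each array (y axis, log2 signal relative to the 75th percentile) by group for 4 genes of the 3 lists that passed in a comparison with control, with a line at the group mean. All 9 fibre arrays lie above the 5 control arrays for Polk and Cyp2b10, and Xdh is lower in RCF than in VCF and CCF by group mean (2.67 against 3.15 and 3.09).

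The genes whose levels ran most like Cyp1a1 over the 14 arrays were Gcsam (Pearson r = 0.909), Ms4a7 (0.890), Mmp2 (0.885), Spc25 (0.879) and Clec9a (0.879), chosen as the 5 highest among all named genes measured. After removal of the group means the values were 0.704, 0.918, 0.660, 0.490 and 0.716, and without CCF 3, the array farthest from the median of Cyp1a1, they were 0.838, 0.780, 0.786, 0.881 and 0.774. For Cyp1b1 the closest were Ehhadh (0.907), Pqlc3 (0.903) and Gpnmb (0.867), for Ahr Zfp503 (0.846) and St3gal6 (0.846), for Tiparp Akirin1 (0.914) and Zfp809 (0.908), and for Arnt Ndufa8 (0.961) and Dhrs7b (0.914). For Aldh3a1 they were Gpd1 (0.947), Hebp2 (0.944), Sfxn1 (0.943), Klk11 (0.942) and Cdsn (0.937). Without control 2 these were between 0.766 and 0.839. These correlations describe likeness over arrays that share groups and slides.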

How the data were processed

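Per the labels' protocols, total RNA of the lung was phenol-extracted, purified on a spin column and labelled with Cy3. Per the file headers, images were quantified by Agilent Feature Extraction 10.7.3.1. The deposited values of each array are intensity: the processed signal, background-subtracted and detrended but not scaled between arrays, and the median signals of spot and local background. The mean signal, planned for an alternative correction, is not used here, and the median took its place. The authors' deposited table holds log2 values, each column being log2 of the processed signal minus 1 constant, with blanks where a probe was not well above background; its column medians ran from −0.52 to 0.30, its direction and scale follow from the array values, it is not centred per gene, and where the constant comes from is not stated.

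From these, log2 processed signal minus the 75th percentile of each array was computed, outlier spots were left out and spots of 1 probe averaged. Probes well above background on at least 3 arrays were kept (37983 of 56605), and the probe with the highest mean stood for its gene, which left 30579 genes. Symbols came from RefSeq accessions: 32994 probes had 1 and 23611 none. Promoters were taken from RefSeq (GRCm38.p6) by symbol, and 6 of the 8 genes matched. Limma 3.58.1 in R 4.3.3 was fitted to all 14 arrays, 4 groups sharing the spread, without covariates, with two-sided moderated tests and Benjamini-Hochberg adjustment over all genes within each of 7 comparisons at 0.05. It was tested on simulated data first. Correlations of pairs used 100000 permutations. The number of arrays limits the precision.

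The members and gene lists were chosen with earlier results of these data known. Named were all 8 genes, every list gene that passed (up to 4 per list and comparison), up to 3 others of a list by size of difference, and the 5 named genes most correlated with each measured member; of those within reach of the rule not all are printed, and Nqo1, Plvap, Tek, Stfa1, Cd79b, Cd2 and Siglecf were added after their values were seen. Some list genes that the counts include are not reported here. Alternatives covered background correction, scaling, the filter on dim probes, the choice of probe, outlier spots, slide and replicate blocks, the arrays fitted and the deposited values.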

Additional observations from a re-analysis of the deposited data

Results flagged for a closer look

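Aldh3a1 in control 2, at 4.97, lay far from the other 4 control lungs (1.79 to 2.22). Its gap to the nearest of them was 0.864 of the range of the group, above the critical value of Dixon's test at 95%, which chance exceeds in about 1 of 20 groups; 14 ends of 7 control groups were examined and no other passed. The same lung held the squamous epithelium markers at 4.88.

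Cyp1a1 lay above the control mean in all CCF lungs and below it in all VCF lungs, and the difference between these fibres was 3.22 on the log2 scale (limma, unadjusted p = 0.000151, adjusted p = 0.0568). It lay above the control mean in all RCF lungs too, and RCF and VCF differed by 2.31 (limma, unadjusted p = 0.00211, adjusted p = 0.286). Neither difference passed after adjustment over all genes.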

How the results depend on the processing

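The 49 differences of the 7 measured genes were recomputed under 27 alternatives, 1309 values in all, since some alternatives give no value for some genes. Of these 1242 kept direction and side of the threshold, 59 changed sign without passing in either case, and 8 passed, all of Cyp1a1. The number of the 7 genes past the threshold, 0 in each comparison, became 1 for CCF against VCF on genes above background on all arrays, with slide as a fixed or a random block and on the authors' deposited values. With 1 array left out it was 0 to 1 for CCF against VCF, VCF against control and RCF against VCF, and 0 in the others.

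After removal of the group mean of each gene, the remaining values of same-numbered arrays of different groups correlated above 0.1 in 12 of 18 pairs (other pairs, 11 of 54). Of the same-numbered pairs 12 of 18 also lay on 1 slide, against 13 of 54 others, so number and slide are partly the same. The median r was 0.181 for same-numbered pairs and −0.0352 for the others, so arrays of the same number were more alike in these values. The labels name nothing that a number shares, and the main fit did not take the numbers to pair the samples. Whether they do, apart from slide, was not tested, and the calls depend on that choice. With a replicate block Cyp1a1 differed by 3.22 in CCF against VCF (adjusted p = 0.159) and by −1.83 in VCF against control (adjusted p = 0.588), and 0 of the 42 listed genes passed in CCF against control and 0 for the mean of the fibres. Normexp with quantile scaling brought Cyp1a1 to −1.23 in VCF against control (adjusted p = 0.453).

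Of the 42 listed genes, 4 passed in CCF against control. That number was 8 with normexp, 0 with median scaling, 1 with no filter on dim probes, 1 when only those groups were fitted and 1 without the fibre array of lowest signal in each group, and 1 to 6 with 1 array left out. For the mean of the fibres 4 passed, against 0 with median scaling, 0 with no filter, 2 with the mean over probes, 7 with slide as a random block, 0 without the lowest-signal arrays and 0 to 5 with 1 array left out. In VCF against control 1 passed in place of 0 with normexp, with the filter on all arrays, with the mean over probes and with slide as a random block.

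Over all genes the number past the threshold moved as much: 26 in VCF against control (0 with median scaling or no filter, 96 with the filter on all arrays, 0 to 28 with 1 array left out), 1832 in CCF against control (2 with a replicate block, 112 with median scaling, 2953 with slide as a random block, 258 to 2717), 47 in RCF against control (0 with median scaling, 468 with slide as a random block, 0 to 55), 790 for the mean of the fibres (0 with a replicate block, 2238 with slide as a random block, 61 to 1033), 68 in CCF against VCF (0 with a replicate block, 656 with slide as a random block, 21 to 142), 3 in RCF against VCF (0 to 10, and 0 to 26) and 1 in RCF against CCF (0 to 1, and 0 to 25). In CCF against control 1157 of the 1832 were higher, against 47 of the 112 with median scaling. The causes were not tested. Within slide 3, an alternative chosen, like the omission of VCF 2 for Cyp2e1 and Cyp2a5, after seeing the data, Cyp1a1 differed by 0.294 in RCF against control.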
